A study of Mus musculus with 12 samples.

Results

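Monocyte and small peritoneal macrophage markers were examined as a set of 9 genes, Ccr2, Ly6c2, Plac8, Csf1r, Lyz1, Cd226, Fcrls, Folr2 and Lyve1, out of 47643 genes with a value in every library. The genes were chosen by symbol, because they are in common use as markers of blood monocytes or of macrophages (Mϕ) of serous cavities, by a rule that uses no measured value, although earlier results of these data were known when it was set. Female C57BL/6 mice aged 8 to 12 weeks received zymosan, a yeast cell wall preparation that causes a self-limiting peritonitis, at 5 mg/kg into the peritoneal cavity. From day 1 they received either vehicle (VEH) or CIII, an inhibitor of the prostaglandin E synthase mPGES-1, at 25 mg/kg each day, and peritoneal Mϕ were sorted on day 6. F4/80lo Mϕ were CD45+ CD11b+ cells with little F4/80 and MerTK and much MHCII on their surface, and F4/80hi Mϕ were CD45+ CD11b+ cells with much F4/80 and MerTK. By the study's methods, CD11c+ MHCII+ dendritic cells and CD11b- lymphoid cells were gated out first, and Ly6G+ neutrophils were gated out of the F4/80lo cells. Each of the 4 groups, F4/80lo VEH, F4/80lo CIII, F4/80hi VEH and F4/80hi CIII, had 3 RNA-seq libraries numbered 1 to 3. All mice carried the inflammation, so no group stands for an uninflamed cavity. The labels do not say whether libraries came from separate mice, and p-values do not reach beyond the spread between these libraries. In limma the spread of a gene is also drawn towards that of the other genes tested.

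Monocytes that carry CCR2 follow its chemokine ligands from the bone marrow into inflamed tissue. In the peritoneal cavity they can mature into small peritoneal Mϕ, which are low in F4/80 and high in MHCII, whereas long-lived large peritoneal Mϕ carry much F4/80 and depend on the transcription factor GATA6. LYVE1 and FOLR2 mark another kind of resident Mϕ, found around vessels and in the membranes that line body cavities.

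The libraries held 426624 to 3389448 reads on genes after collapsing of duplicates, so that 3 reads, taken as the floor of detection, were worth 1.04 to 6.62 CPM on the scale used here, the count of a gene scaled to a common library total. Floors cover counting error only. Levels are given as CPM after a joint scaling of all 12 libraries, as levels of 1 gene across libraries and never as a comparison between genes.

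The libraries numbered 3 differed from libraries 1 and 2 of their gate. F4/80hi VEH 3, F4/80hi CIII 3 and F4/80lo VEH 3 did so in genes of the sort as well. Adgre1, which encodes F4/80, was between 195 and 360.4 CPM in the 6 F4/80lo libraries and between 1085 and 1287 CPM in F4/80hi libraries 1 and 2 of both treatments. In the libraries labelled F4/80hi VEH 3 and F4/80hi CIII 3 it was 431 and 386 CPM, above every F4/80lo library but far below F4/80hi libraries 1 and 2. Gata6 gave the same picture, with 23.2 to 50.1 CPM in F4/80hi libraries 1 and 2, 2.24 and 6.03 CPM in F4/80hi libraries 3, and at most 7.98 CPM in F4/80lo Mϕ. Mertk, another gene of the gate, did not part them so, with 199 and 347 CPM in F4/80hi VEH 3 and CIII 3. It had 184 to 419 CPM in F4/80hi libraries 1 and 2 and 174 to 424 CPM in F4/80lo libraries. Across genes, the library labelled F4/80hi VEH 3 was most like F4/80lo VEH 3 (Pearson's r = 0.927). F4/80hi CIII 3 was most like F4/80lo CIII 3 (r = 0.914). The library labelled F4/80lo VEH 3 held 711 CPM of H2-Aa, an MHCII gene of the sort, where the other F4/80lo libraries held 4046 to 7938 CPM. F4/80lo CIII 3 was among the latter with 5030 CPM, but across genes it was most like F4/80hi CIII 3 (r = 0.914). Ly6a was 181 to 433 CPM in the libraries numbered 3 of both gates and at most 71.2 CPM in libraries 1 and 2. The comparisons of the 9 genes over both treatments, and the counts of the lists of monocyte, peritoneal Mϕ and other cell markers, are therefore also given without the number 3, and values that rest on all libraries alone carry this limit.

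Ccr2 (chromosome 9 from 124101950 to 124113557, plus strand, GRCm38) encodes the chemokine receptor of recruited monocytes. With libraries not paired, Ccr2 had the smallest limma p of the set between subpopulations. Its level was 894, 396 and 1628 CPM in F4/80lo VEH libraries 1, 2 and 3, and 1239, 532 and 2176 CPM in F4/80lo CIII libraries. It was 53.5, 19.5 and 1411 CPM in F4/80hi VEH libraries and 306, 114 and 740.2 CPM in F4/80hi CIII libraries. F4/80hi libraries 1 and 2 were low, and both F4/80hi libraries 3 lay within the F4/80lo range. The log2 fold change of F4/80lo over F4/80hi Mϕ, on the log2(CPM + 1) scale, was 2.38 (SE 0.84, 95% interval 0.59 to 4.18), a 5.22-fold difference. With 12 libraries and no pairing, limma gave a Benjamini-Hochberg adjusted p of 0.386. An exact two-sided permutation test over the libraries, 6 against 6, gave p = 0.0433, where the smallest it can give is 0.00216.

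None of the 9 genes passed an adjusted p of 0.05 in that unpaired limma fit, in which 2 of 10726 genes (0.0186%) did. Ccr2 and Fcrls had an unadjusted p under 0.05, as had 9.29% of the genes tested. No gene of the set had F4/80lo and F4/80hi libraries that did not overlap, which 0.839% of genes had. Libraries of the same number deviated together from their group means, so F4/80lo and F4/80hi libraries of the same treatment and number were also compared as 6 pairs. With that pairing as a block, limma gave 4 genes of the set an adjusted p under 0.05 (Ccr2 and Fcrls higher in F4/80lo, Folr2 and Lyve1 lower), against 5.12% of all genes tested. Higher in F4/80lo were 2.62% of genes and lower were 2.5%. Blocking by the number alone left Ccr2, with an adjusted p of 0.0066 by limma after Benjamini-Hochberg adjustment, against 2.6% of all genes.

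**Figure D1:**
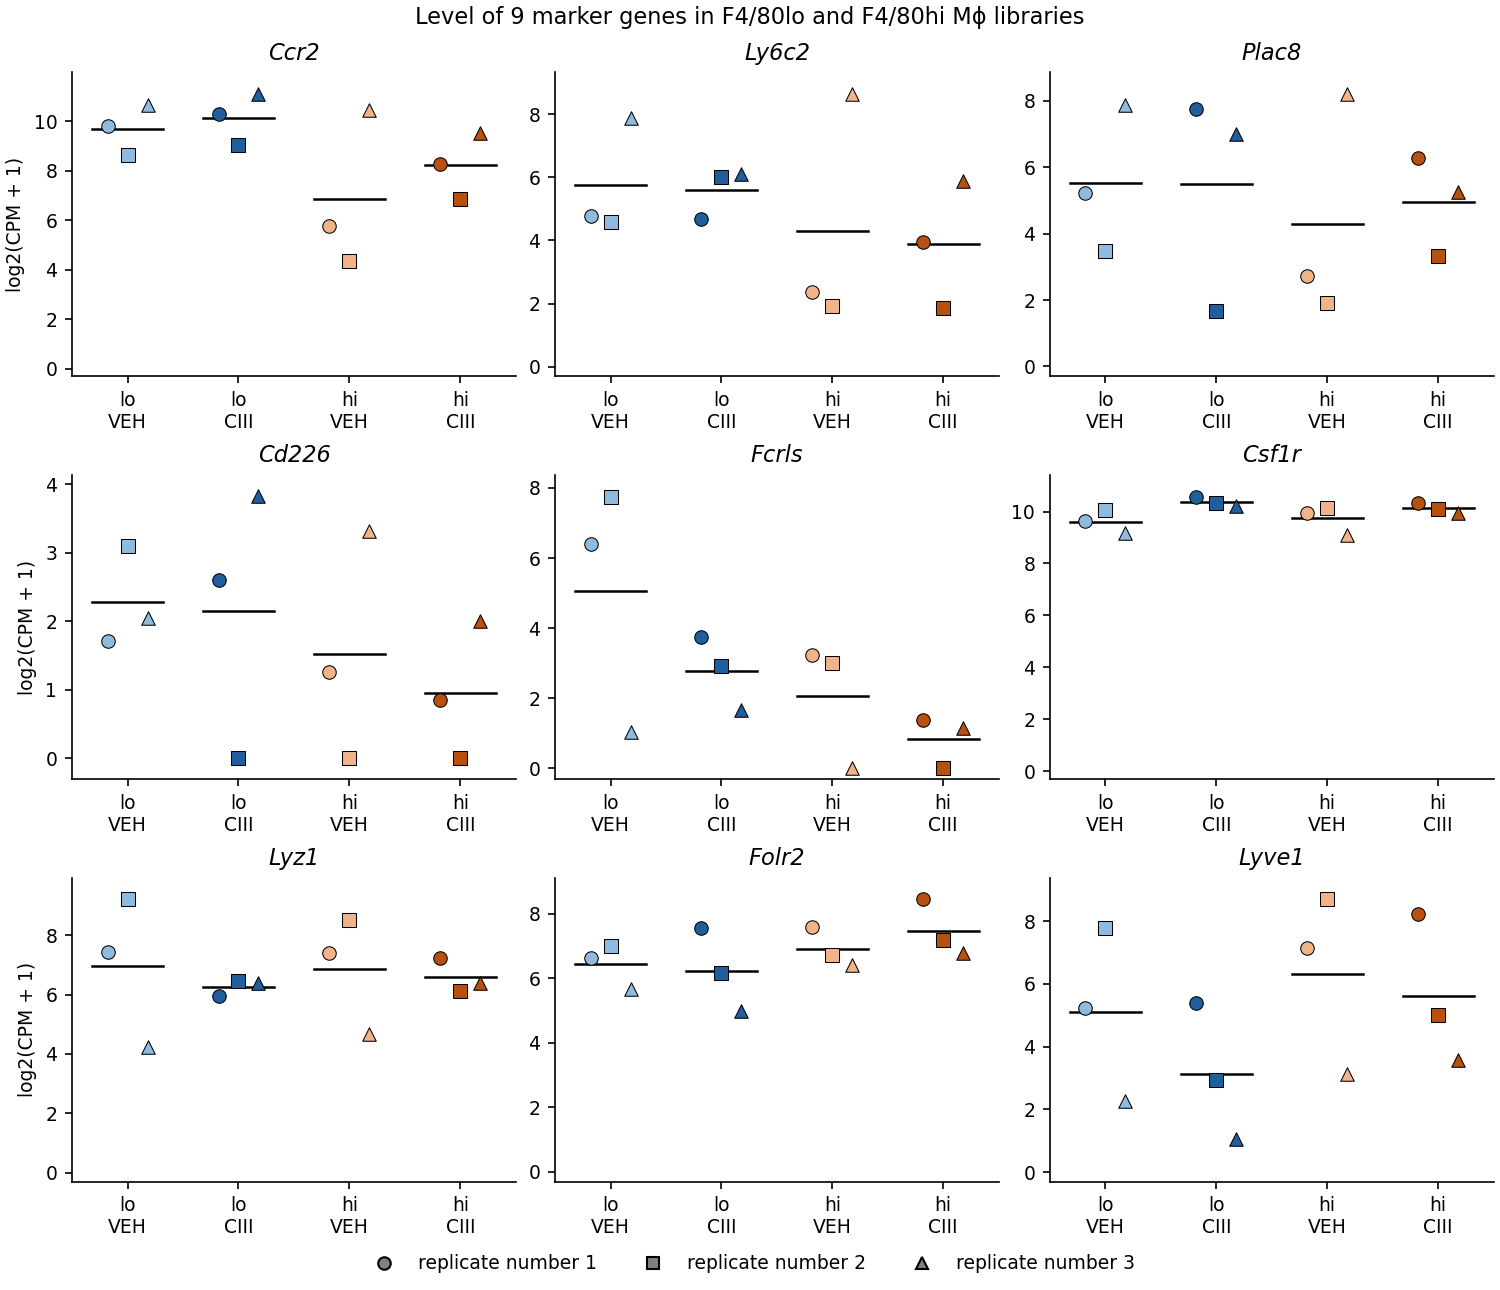
Level of each gene in the 12 libraries, as log2(CPM + 1) on the vertical axis with 1 panel per gene, for F4/80lo VEH, F4/80lo CIII, F4/80hi VEH and F4/80hi CIII. Marker shapes give the library number. In the Ccr2 panel the F4/80hi libraries 3 sit among the F4/80lo libraries, in the Ly6c2 panel F4/80hi VEH 3 is the highest of all, and in the Csf1r panel all 12 libraries lie between 553 and 1513 CPM.

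In the 6 pairs Ccr2 was higher in F4/80lo Mϕ every time, by 0.21 to 4.28 with a median of 2.12 on the log2 scale, where 5.65% of genes were higher in all 6. The VEH pairs gave 4.04, 4.28 and 0.21, and the CIII pairs 2.01, 2.22 and 1.55. The adjusted p of the paired limma fit was 0.000793 (SE 0.35). As limma draws the spread of a gene towards that of other genes, this SE does not measure the spread of these pairs alone. In libraries 1 and 2 alone the fold change was 3.15 (SE 0.40, adjusted p = 0.000259 by limma with Benjamini-Hochberg adjustment), or 8.89-fold. Within VEH alone the paired limma fit gave 2.84 (adjusted p = 0.0175, with 0.932% of genes called higher), whereas within CIII alone the difference was 1.93 and was called in none of the settings run. The difference between these values, −0.91, had an adjusted p of 1 in limma.

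Ly6c2 (chromosome 15 from 75108158 to 75111970, minus strand), which encodes the Ly6C antigen used to sort inflammatory monocytes, had 26.2, 22.8 and 235 CPM in F4/80lo VEH libraries 1 to 3, and 24.7, 64.0 and 68.3 CPM in F4/80lo CIII libraries. In F4/80hi Mϕ it had 4.22, 2.79 and 395 CPM with VEH and 14.4, 2.61 and 57.9 CPM with CIII. The highest of the 12 values was thus in the library labelled F4/80hi VEH 3, and the next highest in F4/80lo VEH 3. In F4/80hi libraries 1 and 2 the level rested on 2 to 18 reads. Over all 12 libraries its log2 fold change was 1.57 (SE 1.06, 95% interval −0.69 to 3.84, adjusted p = 0.695 by limma), and Ly6c2 was higher in F4/80lo Mϕ in 5 of 6 pairs. With number 3 left out it was 2.51 (SE 0.58, adjusted p = 0.026 by limma after Benjamini-Hochberg adjustment). In those 8 libraries 3 of the 8 genes of the set that passed the filter were called, Ccr2, Fcrls and Ly6c2, all higher in F4/80lo Mϕ, as were 1.48% of all genes. Ccr2 and Ly6c2 were also the genes of the set whose F4/80lo and F4/80hi libraries 1 and 2 did not overlap, with 4.27% of all genes apart and higher in F4/80lo (exact permutation p = 0.0286 each, the smallest that 4 against 4 can give).

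Ly6c2 has a close copy, Ly6c1, and libraries of this kind read the 3′ end of transcripts. The last 300 bases of the longest coding transcripts of this pair were 93.5% identical and the last 100 were 85.0% identical. Ly6c2 took 99.4% to 100% of the reads of the pair, on 2 or 3 reads in F4/80hi VEH 1, VEH 2 and CIII 2, where the exact 95% lower limits were 29.2%, 15.8% and 15.8%. How reads fitting both copies were handled was not given in the sources used here, for this pair or for the pair of lysozyme genes. The 250 bases before the RefSeq transcription start of each gene were 59.0% identical and are shown because the copies differ there more than at the 3′ end. They lie on the minus strand of GRCm38.p6, Ly6c2 at chr15:75111972-75112221 and Ly6c1 at chr15:75048838-75049087, and are written 5′ to 3′ on the strand of the gene. Capitals mark GAGGAA or its reverse complement TTCCTC, the letters at the core of many sites of PU.1, the transcription factor that directs the monocyte lineage.
Ly6c2: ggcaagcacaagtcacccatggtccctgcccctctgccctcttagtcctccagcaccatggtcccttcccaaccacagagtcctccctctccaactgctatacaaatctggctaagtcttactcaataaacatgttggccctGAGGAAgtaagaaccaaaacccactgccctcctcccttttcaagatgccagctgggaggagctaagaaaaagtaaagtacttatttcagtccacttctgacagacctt
Ly6c1: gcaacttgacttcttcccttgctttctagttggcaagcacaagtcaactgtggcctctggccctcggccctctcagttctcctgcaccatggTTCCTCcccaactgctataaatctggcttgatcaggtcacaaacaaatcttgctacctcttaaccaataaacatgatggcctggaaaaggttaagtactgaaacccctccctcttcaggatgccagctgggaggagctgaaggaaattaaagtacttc
Ly6c2 held the letters once, 108 bases before its start, and Ly6c1 held them once on the other strand, 158 bases before. Of 32851 RefSeq windows of the same length 23.3% held them on either strand. Windows were at hand for 6 of the 9 genes and 3 held the letters, Ly6c2, Fcrls and Plac8, while those of Ccr2, Folr2 and Lyz1 did not. A match describes the letters and was not tested as a site. Of 10 close copies of the members, 5 passed the filter and none was called between subpopulations, among them Ly6a (1.11), Ly6e (0.49), Ly6i (0.15) and Lyz2 (−0.33). Without number 3 none of 4 was called.

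Plac8 (chromosome 5 from 100553725 to 100572245, minus strand), a small cysteine-rich protein abundant in Ly6C-high monocytes, spanned about the same range in both subpopulations. It had 36.5, 10.1 and 235 CPM in F4/80lo VEH libraries and 217, 2.21 and 128 CPM in F4/80lo CIII libraries. F4/80hi VEH libraries had 5.63, 2.79 and 295 CPM, and F4/80hi CIII libraries 76.7, 9.13 and 37.4 CPM. Library 2 was the lowest of its group each time. The fold change of F4/80lo over F4/80hi Mϕ was 0.89 on the log2 scale (SE 1.21, adjusted p = 0.872 by limma), and 0.99 without the libraries numbered 3 (adjusted p = 0.667 by limma).

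**Figure D2:**
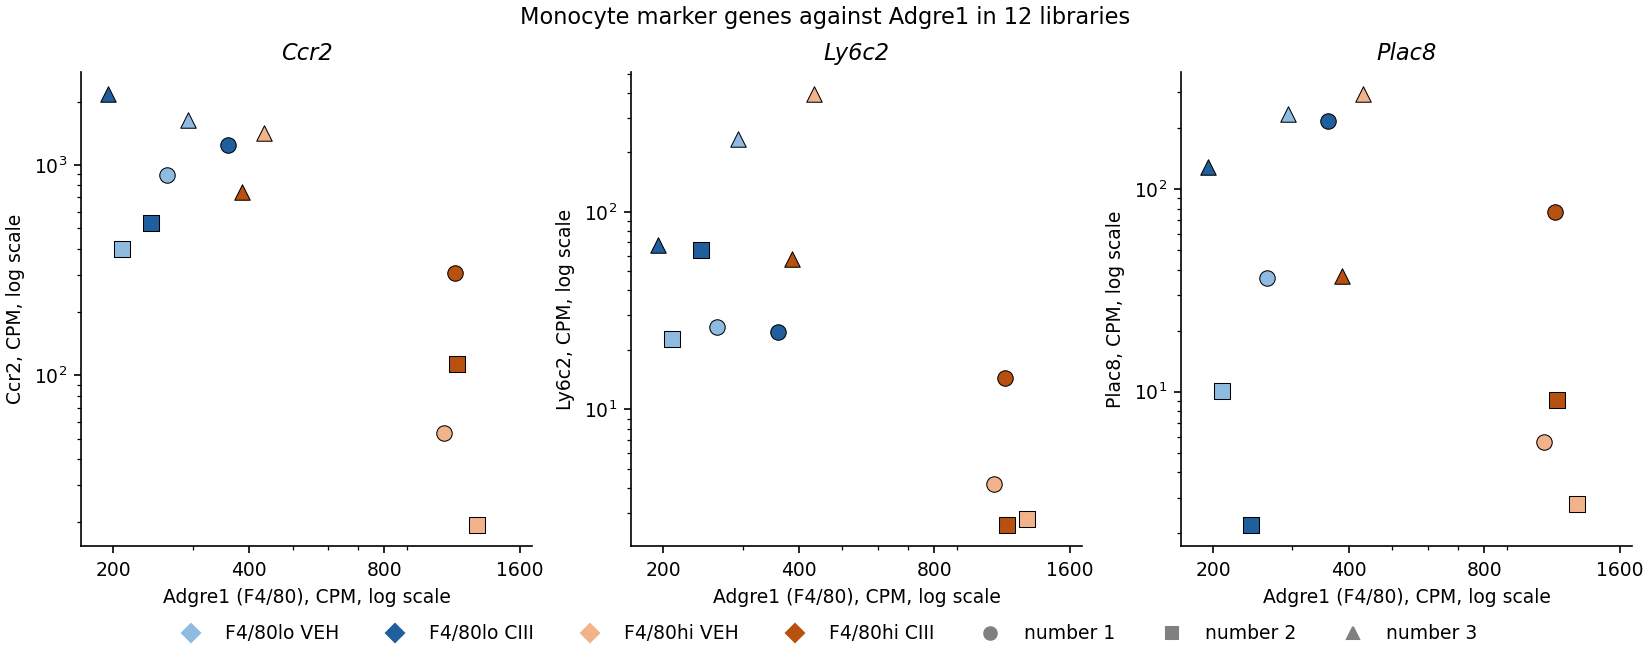
Ccr2, Ly6c2 and Plac8 (vertical axes, CPM, log scale) against Adgre1 (horizontal axes, CPM, log scale) in the 12 libraries, coloured by group and shaped by library number. The 4 points above 1000 CPM of Adgre1 are F4/80hi libraries 1 and 2. The F4/80hi libraries 3, at 386 and 431 CPM of Adgre1, lie just above the F4/80lo libraries, which reach 360.4 CPM.

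In the unpaired limma fit none of the genes of the monocyte, peritoneal Mϕ and other cell lists had an adjusted p under 0.05, so the calls given here for lists rest on the pairing or on leaving out number 3. Of all 10726 genes tested, the paired limma fit called 281 higher and 268 lower in F4/80lo Mϕ. With number 3 left out limma called 158 higher and 172 lower of 10671 genes. Of 10 other classical monocyte genes tested, 5 were higher and 5 lower in F4/80lo Mϕ, with a median log2 fold change of 0.06 against 0.00 over all genes tested. The paired limma fit called 1 higher and 2 lower, and without the libraries numbered 3 limma called 1 higher and 1 lower of 9. Ms4a4c, a membrane protein of monocytes, was higher (3.12), and Mgst1, a microsomal glutathione transferase (−1.17), was among the lower genes. Of 8 non-classical monocyte genes tested out of 10 listed, 7 were higher, with a median of 1.18, and the paired limma fit called 4: Cx3cr1, the fractalkine receptor (2.74), Ear2, an eosinophil-associated ribonuclease with 0 to 78.5 CPM in F4/80lo and no read in F4/80hi libraries, Itgal, a leukocyte integrin chain (1.47), and Spn, the sialophorin CD43 (1.13). Over the libraries numbered 1 and 2 the median was 1.52 and 3 of 8 were called higher by limma, Cx3cr1, Ear2 and Spn. Of the 10 listed, 9 had a mean of at least 3 CPM in F4/80lo and 6 in F4/80hi libraries, over all numbers and over numbers 1 and 2, so that some, Ear2 among them, passed the filter only through F4/80lo Mϕ and could only be higher there. Of 19 ligands, partners and regulators of the set 13 were tested, with a median log2 fold change of −0.11, and Ccl8 was the called one; without number 3 none of 13 was called. Of the chemokine genes in that list, Ccl8 was lower in F4/80lo Mϕ in the paired limma fit (−1.82, adjusted p = 0.023). It was not called without the libraries numbered 3 (−1.28, adjusted p = 0.481 by limma). Ccl2 (0.24), Ccl7 (−0.41) and Ccl12 (−0.89) were not called.

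Lyz1 (chromosome 10 from 117287797 to 117292868, minus strand), the minor of the pair of mouse lysozyme genes in Mϕ, differed more between library numbers than between gates with VEH. It had 171, 589 and 17.8 CPM in F4/80lo VEH and 167, 361 and 24.6 CPM in F4/80hi VEH libraries, so that library 2 was the highest and library 3 the lowest in both. With CIII it had 60.3, 86.1 and 83.7 CPM in F4/80lo and 149, 69.2 and 82.0 CPM in F4/80hi Mϕ. Between subpopulations the log2 fold change was −0.11 (SE 0.73, adjusted p = 0.98 by limma), and its sign turned in both count models. Without the libraries numbered 3 it was −0.0458 (adjusted p = 0.966 by limma). Lyz2, the main lysozyme gene, shares 93.8% of the last 300 bases. Lyz1 took 0.297% to 5.23% of the reads of the pair in F4/80lo libraries (median 0.932%) and 0.205% to 3.23% in F4/80hi libraries (median 0.890%), a difference with an exact permutation p of 0.682. Library VEH 2 held the highest share in both subpopulations. The 250 bases before the RefSeq start of Lyz1, at chr10:117292869-117293118 on the minus strand of GRCm38.p6, are shown because they are 78.8% identical to those of Lyz2 and hold neither GAGGAA nor TTCCTC.
Lyz1: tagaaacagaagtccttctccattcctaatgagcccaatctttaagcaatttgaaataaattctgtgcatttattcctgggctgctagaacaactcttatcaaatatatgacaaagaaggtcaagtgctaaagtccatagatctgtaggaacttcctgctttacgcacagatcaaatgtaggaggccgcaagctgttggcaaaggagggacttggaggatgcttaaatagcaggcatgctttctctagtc

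Csf1r (chromosome 18 from 61100598 to 61132149, plus strand), the receptor of the growth factor CSF1 on which monocytes and Mϕ depend, had the smallest fold change of the set between subpopulations. Its level was 784, 1061 and 576 CPM in F4/80lo VEH, 1513, 1293 and 1194 CPM in F4/80lo CIII, 972, 1138 and 553 CPM in F4/80hi VEH, and 1268, 1097 and 983 CPM in F4/80hi CIII libraries. In each group library 3 was the lowest. F4/80lo over F4/80hi Mϕ gave a log2 fold change of 0.07, with a 95% interval from −0.48 to 0.62 (SE 0.25, adjusted p = 0.96 by limma). In libraries 1 and 2 alone it was 0.03. Csf1, its ligand, differed by −0.51, and the transcription factors Spi1, which encodes PU.1, Cebpa and Runx1 by 0.14, 0.03 and 0.20 on the log2 scale, none called in the unpaired or the paired limma fit.

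Fcrls (chromosome 3 from 87250758 to 87263738, minus strand), a scavenger-receptor-like member of the Fc receptor family best known from microglia, was high in a pair of libraries alone. It had 83.2, 214 and 1.04 CPM in F4/80lo VEH libraries, which rest on 73, 169 and 3 reads, and 12.4, 6.62 and 2.20 CPM in F4/80lo CIII libraries, on 17, 3 and 2 reads. F4/80hi libraries had 0 to 8.44 CPM, on at most 6 reads. The fold change of F4/80lo over F4/80hi Mϕ was 2.46 on the log2 scale (SE 1.00, adjusted p = 0.467 by limma), with p = 0.0736 by the exact permutation test. In VEH 3, CIII 2 and CIII 3 both libraries of the pair held at most 3 reads, so the direction was measured in the other 3 pairs, where Fcrls was higher in F4/80lo Mϕ by 3.16, 4.76 and 2.36. Over all 6 pairs the limma fit gave an adjusted p of 0.0157 (SE 0.56). With number 3 left out the fold change was 3.33 (SE 0.58, adjusted p = 0.00412 by limma), a size that depends on the pseudocount, since the F4/80hi side held at most 6 reads. Within VEH those libraries gave 3.99 (adjusted p = 0.032 by limma, with 0.497% of genes called higher).

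Cd226 (chromosome 18 from 89176967 to 89272229, plus strand), an adhesion receptor used as a surface marker of small peritoneal Mϕ, was near the floor throughout. It had 2, 6 and 9 reads in F4/80lo VEH libraries, 7, 0 and 12 in F4/80lo CIII, 1, 0 and 8 in F4/80hi VEH, and 1, 0 and 5 in F4/80hi CIII libraries. Of the libraries numbered 2, both with CIII and F4/80hi VEH 2 were at 0, which in F4/80lo CIII 2, the shallowest, allows up to 6.62 CPM. Its log2 fold change of 0.98 (95% interval −0.72 to 2.68, adjusted p = 0.751 by limma) could not be told from none at this depth, and without the libraries numbered 3 Cd226 did not pass the filter on low values.

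Other small peritoneal Mϕ genes were better measured. All 7 that were tested were higher in F4/80lo Mϕ, with a median log2 fold change of 1.13, and the paired limma fit called 4: the lectin genes Cd209a (4.09) and Mgl2 (2.36), the integrin gene Itgax (3.34), which encodes CD11c, and Retnla (1.13), a secreted resistin-like protein of alternatively activated Mϕ. Over the libraries numbered 1 and 2 limma called the same 4, with a list median of 1.69. Cd209a passed the filter only through F4/80lo Mϕ, and the other 6 had a mean of at least 3 CPM in both subpopulations. The transcription factor gene Irf4 (1.0) was not called. The library labelled F4/80lo VEH 3 had 1.74 CPM of Cd209a where the F4/80lo libraries 1 and 2 had 51.6 to 124 CPM. The 7 genes summed to 430 CPM in F4/80lo VEH 3 and 529 CPM in F4/80lo CIII 3. In F4/80lo libraries 1 and 2 they summed to 1947 to 5518 CPM. All 13 large peritoneal Mϕ genes tested were lower in F4/80lo Mϕ (median −1.69), and 11 were called in the paired limma fit. Among these were Gata6 (−2.59), Icam2 (−1.65), an adhesion molecule of these cells, Naip1 (−1.61), an inflammasome sensor, and Adgre1, on whose protein the cells were gated. Without the libraries numbered 3 the median was −2.36 and 10 were called lower by limma, as were 172 of all 10671 genes tested. The sort itself used CD11b, F4/80, MerTK, MHCII and, for dendritic cells, CD11c, and their transcripts are no finding. H2-Aa differed by 2.08, Adgre1 by −1.69 and Mertk by −0.19. Adgre1 and Mertk are among the 13 large peritoneal Mϕ genes and Itgax among the 7 small ones. The counts and medians of both lists thus hold genes of the sort.

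**Figure D3:**
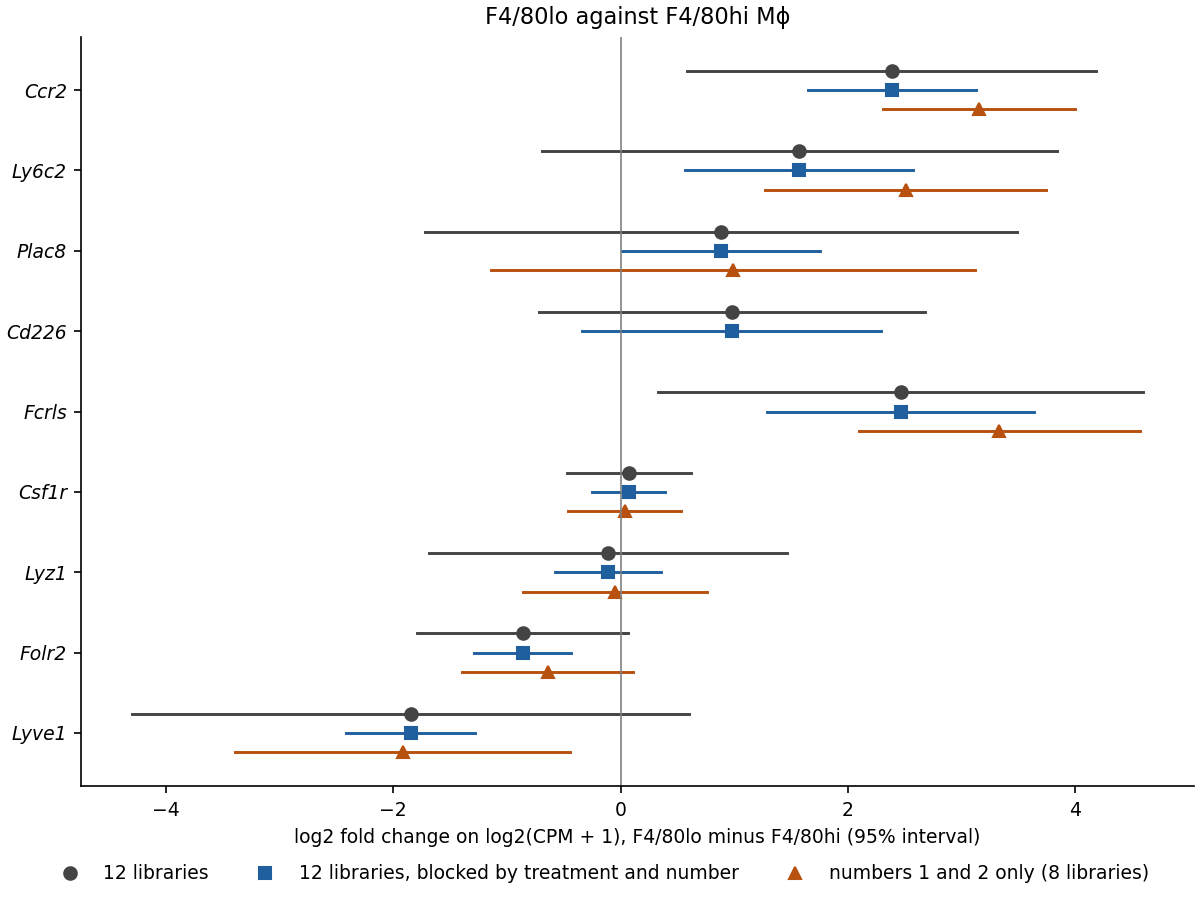
Log2 fold change of F4/80lo over F4/80hi Mϕ on the log2(CPM + 1) scale (horizontal axis) for each of the 9 genes (vertical axis), with 95% intervals from limma, for 12 libraries, for 12 libraries blocked by treatment and number, and for the 8 libraries numbered 1 and 2. The blocked intervals of Ccr2, Fcrls, Folr2 and Lyve1 are the narrower ones and lie to 1 side of 0, as do those of Ly6c2 and Plac8, which did not pass adjustment, with Csf1r at 0.07 and Lyz1 at −0.11; Cd226 has no value without the libraries numbered 3.

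Folr2 (chromosome 7 from 101839988 to 101857194, minus strand), which encodes folate receptor beta, was measured in every library. F4/80lo VEH libraries had 98.0, 128 and 50.2 CPM, F4/80lo CIII 187, 70.6 and 30.8 CPM, F4/80hi VEH 191, 106 and 85.1 CPM, and F4/80hi CIII 349, 146 and 109.7 CPM. In both treatments of F4/80hi Mϕ library 1 was the highest. Folr2 was lower in F4/80lo Mϕ in 5 of 6 pairs, and the log2 fold change was −0.86 (SE 0.43, 95% interval −1.79 to 0.06, adjusted p = 0.569 by limma). The paired limma fit gave SE 0.20 and an adjusted p of 0.0192, and without the libraries numbered 3 the fold change was −0.64 (adjusted p = 0.382 by limma). Within CIII alone the paired limma fit gave −1.25 (adjusted p = 0.0454, with 0.69% of genes called lower) and within VEH −0.48 (adjusted p = 0.453). In libraries 1 and 2 alone the value within CIII was −0.97 (adjusted p = 0.486 by limma).

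Lyve1 (chromosome 7 from 110850607 to 110863239, minus strand), a receptor for the matrix sugar hyaluronan, differed widely between library numbers and in 1 direction within pairs. It had 36.5, 222 and 3.83 CPM in F4/80lo VEH and 141, 414 and 7.84 CPM in F4/80hi VEH libraries. With CIII it had 41.4, 6.62 and 1.10 CPM in F4/80lo and 298, 31.3 and 10.9 CPM in F4/80hi libraries. The libraries of both subpopulations overlapped, but each F4/80lo library was below the F4/80hi library of its treatment and number, with differences from −2.82 to −0.87 on the log2 scale (median −2.0), where 5.12% of genes were lower in all 6 pairs. Its log2 fold change was −1.85, with SE 1.14 and an adjusted p of 0.656 unpaired and SE 0.27 and an adjusted p of 0.000793 paired (limma, Benjamini-Hochberg adjustment). With number 3 left out it was −1.92 (SE 0.70, adjusted p = 0.161 by limma). Within CIII the paired limma fit gave −2.47 (adjusted p = 0.00293) and within VEH −1.23 (adjusted p = 0.113). Over the libraries numbered 1 and 2 the value within CIII was −2.45 (adjusted p = 0.358 by limma). For neither gene was the difference between treatments past the test.

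Of 14 other genes of LYVE1- and FOLR2-bearing Mϕ 12 were tested, and 3 were higher and 9 lower in F4/80lo Mϕ, with a median of −0.56. The paired limma fit called 4, all lower: the growth factor Igf1 (−1.71), the chemokine Pf4 (−2.0), Gas6, a ligand of MerTK (−2.05), and Ninj1, a membrane rupture protein (−0.91). Without the libraries numbered 3 limma called Pf4 and Gas6 alone of the 12, with a median of −0.70. The complement gene C4b (−0.79) was not called. Of the partners of these receptors, the folate transporters Slc46a1 (−0.94) and Slc19a1 (−0.11) and the hyaluronan receptors Cd44 (−0.04) and Hmmr (−0.99) were not called, nor was Pvr (0.35), a ligand of CD226. In these bulk libraries fewer cells of a type and less RNA per cell cannot be told apart.

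**Figure D4:**
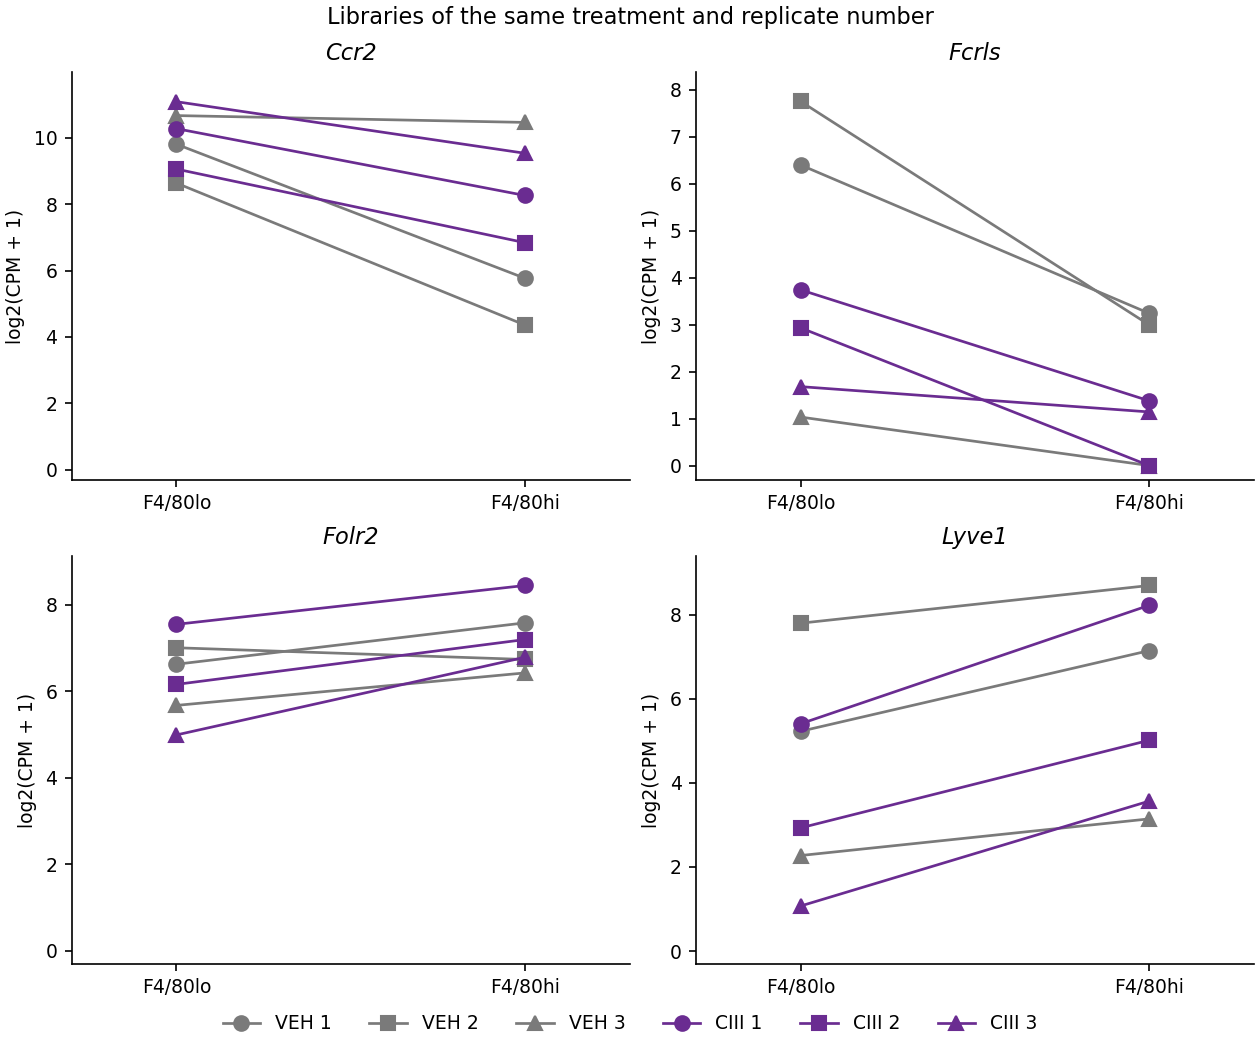
Level of Ccr2, Fcrls, Folr2 and Lyve1 as log2(CPM + 1) (vertical axes) in F4/80lo and F4/80hi libraries (horizontal axes), with a line joining libraries of the same treatment and number. Ccr2 falls in 6 of 6 lines from F4/80lo to F4/80hi and Fcrls in the 3 lines with more than 3 reads, Lyve1 rises in 6 of 6 and Folr2 in 5 of 6.

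Transcripts of dendritic cells, which the gate on CD11c and MHCII was set to remove, were detected mainly in F4/80lo libraries. Of 8 listed, 6 had a mean of at least 3 CPM in F4/80lo and 2 in F4/80hi libraries, so most passed the filter only through F4/80lo Mϕ and their direction was largely set by it. The paired limma fit called Dpp4 (3.75), Flt3 (3.37), Batf3 (2.84), Zbtb46 (2.75) and Btla higher, the last with 1.74 to 18.9 CPM in F4/80lo and no read in F4/80hi libraries. In libraries 1 and 2 alone limma called 3 of 6, Dpp4, Flt3 and Batf3. Their list summed to 32.4 to 199 CPM in F4/80lo and 0 to 33.8 CPM in F4/80hi libraries. The B cell list summed to 25.8 to 193 CPM in F4/80lo and 0 to 67.9 CPM in F4/80hi libraries, and of 3 genes tested Ighm (2.50) was called, as it was of 4 tested without number 3. T and NK cell genes summed to at most 30.9 and 35.8 CPM, with Cd3d (1.33) not called, and neutrophil genes to 21.8 to 90.2 and 36.5 to 148 CPM in F4/80lo and F4/80hi libraries, with the neutrophil granule genes Camp and Ngp at 0 reads in all libraries and S100a8 (−1.27) and Csf3r (0.18) not called in the unpaired or the paired limma fit. Of the T and NK cell and neutrophil lists none was called without number 3 either. Mesothelial genes summed to at most 1.14 CPM. The part of these cells in the differences of Ccr2, Fcrls, Folr2, Lyve1 and the small peritoneal Mϕ genes was not tested.

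For the response to CIII, the deposited normalized counts of each subpopulation were compared on their own table. In F4/80lo Mϕ limma called none of the 9 genes and none of 10718 genes (0%), and 2.7% of genes had an unadjusted p under 0.05. edgeR called none and DESeq2 called 2 genes, neither of them in the set. In F4/80hi Mϕ limma called none of the 7 genes tested, with Cd226 and Fcrls under the filter, and none of 10499 genes (0%), edgeR and DESeq2 called 0 genes each, and 3.93% had an unadjusted p under 0.05.

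Csf1r was the gene of the set whose VEH and CIII libraries did not overlap in F4/80lo Mϕ. It had 801, 1076 and 551 normalized counts with VEH and 1477, 1339 and 1198 with CIII, and 3.82% of genes were likewise apart and higher. A log2 fold change of 0.77 was fitted (SE 0.38, 95% interval −0.07 to 1.61, adjusted p = 1 by limma), positive for each library number (0.88, 0.32 and 1.12), as for 13.1% of genes. An exact permutation test gave p = 0.1, the smallest that 3 against 3 allows. With the library number as a block Csf1r, Fcrls and Lyve1 had an unadjusted limma p under 0.05, as had 6.89% of all genes, and adjusted p values of 0.689 to 0.692. The growth factor Csf1 itself was sparse, with 0 to 10.4 CPM, and its log2 fold change with CIII was 1.65 in the F4/80lo table and 0.39 in the F4/80hi table, neither past the test. Csf1r in F4/80hi Mϕ had 919, 1067 and 518 normalized counts with VEH and 1146, 1011 and 892 with CIII, a log2 fold change of 0.34 that did not pass the test. With number 3 left out Csf1r gave 0.60 in the F4/80lo table and 0.12 in the F4/80hi table.

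Ccr2 in F4/80lo Mϕ had 913, 402 and 1557 normalized counts with VEH and 1209, 551 and 2183 with CIII, so that each number was higher with CIII by 0.40 to 0.49 on the log2 scale, a step smaller than the gap between numbers. The fitted value was 0.45 (SE 0.59, adjusted p = 1 by limma), and 13.1% of all genes were higher in each number. Without number 3 it was 0.43. In F4/80hi Mϕ it had 50.5, 18.3 and 1321 with VEH and 276, 105 and 672 with CIII. Libraries 1 and 2 differed by 2.43 and 2.45 upwards and library 3 by −0.97. The fitted value of 1.3 (SE 1.35, limma adjusted p = 0.992) became −0.38 in edgeR and −0.40 in DESeq2, and without the libraries numbered 3 it was 2.44 with an adjusted p of 0.626 by limma. With the block by number Ccr2 had an unadjusted limma p under 0.05, as had 11.3% of genes, and an adjusted p of 0.409.

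Fcrls and Lyz1 turned on the library number as well. Fcrls in F4/80lo Mϕ had 84.9, 217 and 0.999 normalized counts with VEH and 12.1, 6.85 and 2.21 with CIII, a log2 fold change of −2.28 (SE 1.38, adjusted p = 1 by limma). Lyz1 had 175, 597 and 17.0 with VEH and 58.9, 89.1 and 84.0 with CIII, a log2 fold change of −0.68. For both genes VEH libraries 1 and 2 were above the CIII libraries of their number and VEH library 3 was below. Over the libraries numbered 1 and 2 limma called 12 genes in F4/80lo Mϕ (0.114%), all lower with CIII, and both were among them: Fcrls fell by 3.76 (SE 0.57, adjusted p = 0.00185) and Lyz1 by 2.14 (SE 0.45, adjusted p = 0.0384). In number 3 alone Fcrls and Lyz1 were higher with CIII, by 0.68 and 2.24.

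Lyve1 in F4/80lo Mϕ had 37.2, 225 and 3.66 normalized counts with VEH and 40.4, 6.85 and 1.11 with CIII (log2 fold change −1.96, SE 1.31, adjusted p = 1 by limma), and library 2 differed the most. Without number 3 it was −2.36 (adjusted p = 0.373 by limma). In F4/80hi Mϕ it had 133, 388 and 7.34 with VEH and 269, 28.8 and 9.85 with CIII (−0.77). Folr2 was higher with CIII for each number in F4/80hi Mϕ, by 0.32 to 0.80, as 17.2% of genes were, with a fitted value of 0.52 (SE 0.49, adjusted p = 0.992 by limma), or 0.62 without number 3. The other values were between −0.19 and −0.04 for Folr2, Cd226, Ly6c2 and Plac8 in F4/80lo Mϕ, and −0.46 for Ly6c2, −0.33 for Lyz1 and 0.62 for Plac8 in F4/80hi Mϕ. When the response to CIII in F4/80lo Mϕ was set against that in F4/80hi Mϕ, limma gave no gene of the set or of the whole table (0%) an adjusted p under 0.05, and 1.85% of genes had an unadjusted p under 0.05.

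**Figure D5:**
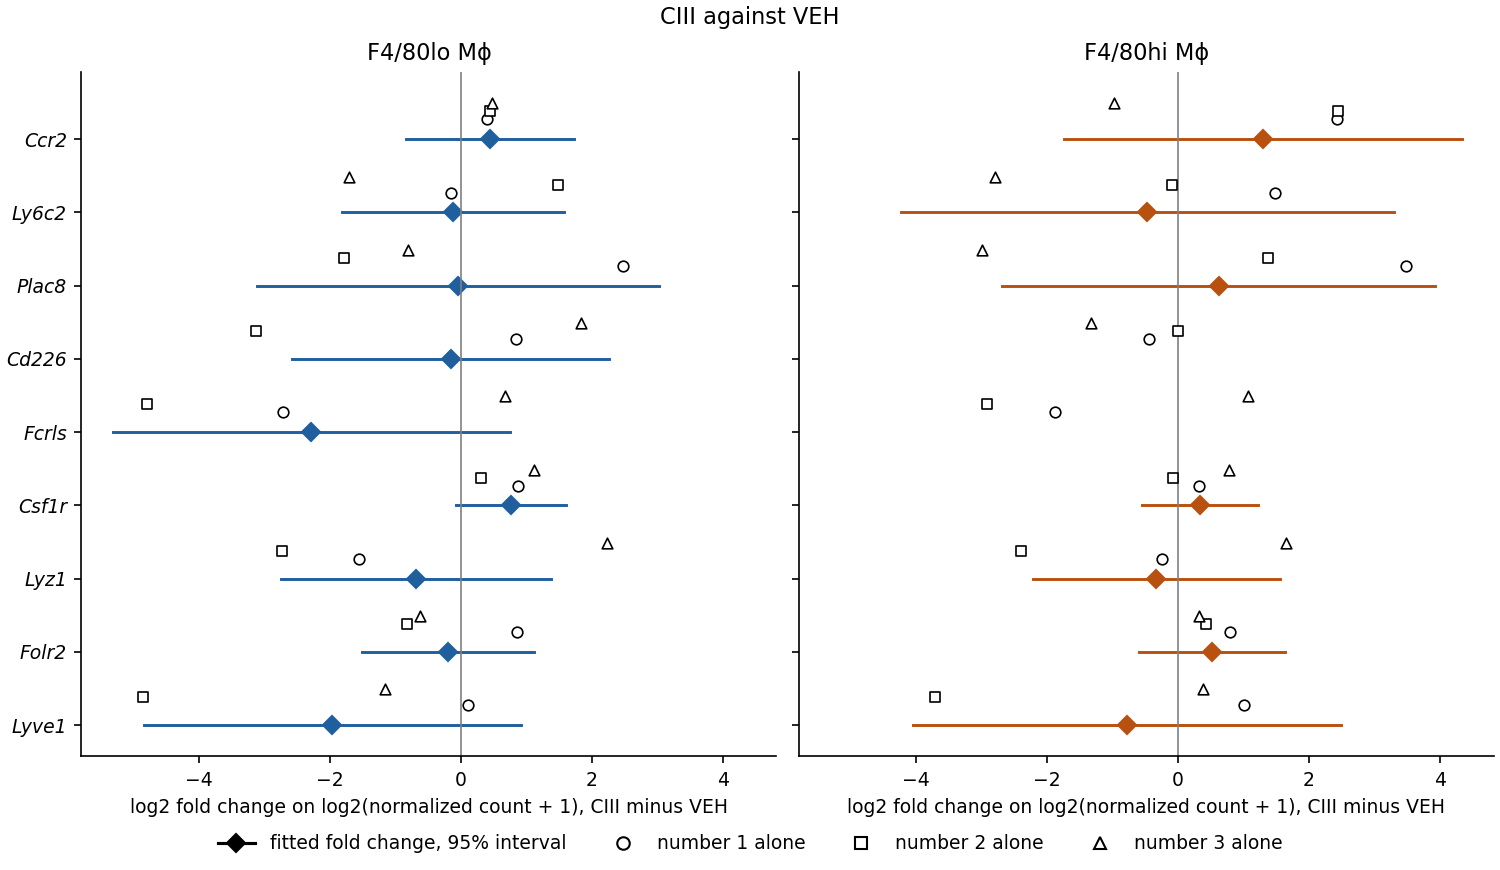
Log2 fold change of CIII over VEH on the log2(normalized count + 1) scale (horizontal axes) in F4/80lo and F4/80hi Mϕ for each gene of the set (vertical axis). Diamonds and lines give the limma estimate with its 95% interval and open symbols the difference in each library number alone. Every interval includes 0, and for Fcrls and Lyz1 in F4/80lo Mϕ number 3 lies on the other side of 0 from numbers 1 and 2.

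None of the chemokine genes Ccl2, Ccl7, Ccl8 and Ccl12 passed adjustment for CIII in F4/80lo Mϕ. Ccl2, which encodes the main ligand of CCR2, had 52.4, 86.1 and 113 CPM with VEH and 24, 15.4 and 14.3 CPM with CIII. Ccl12 had 5.70, 10.1 and 43.9 CPM with VEH, and 2.91, 0 and 0 CPM with CIII. Ccl8 had 6.84, 12.7 and 33.8 CPM with VEH and 13.1, 0 and 1.10 CPM with CIII, so that library 1 went the other way. VEH and CIII libraries of Ccl2, Ccl7 and Ccl12 did not overlap, as was so for 4.92% of genes lower with CIII. The log2 fold changes were −2.12 for Ccl2, −2.89 for Ccl7, −3.25 for Ccl12 and −2.33 for Ccl8, each with an unadjusted limma p under 0.05 and an adjusted p of 1. The F4/80hi values were −1.17 for Ccl2, −0.99 for Ccl7, −1.88 for Ccl12 and 1.24 for Ccl8, none with a limma p under 0.05. Without the libraries numbered 3 they were −1.77, −3.23, −2.16 and −1.50 in F4/80lo Mϕ and 0.19, 0.90, −0.85 and 1.83 in F4/80hi Mϕ for Ccl2, Ccl7, Ccl12 and Ccl8, none called by limma. These chemokine genes have similar copies.

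By group mean, Ccr2 ran from 1316 CPM in F4/80lo CIII over 973 in F4/80lo VEH and 495 in F4/80hi VEH to 387 in F4/80hi CIII. In libraries 1 and 2 alone its means were 885, 645, 36.5 and 209.8 CPM in the same order of groups, so that the order of the F4/80hi groups turned. Csf1r ran from 1333 in F4/80lo CIII over 1116 in F4/80hi CIII and 888 in F4/80hi VEH to 807 CPM in F4/80lo VEH. Folr2 ran from 202 in F4/80hi CIII over 127 in F4/80hi VEH and 96.1 in F4/80lo CIII to 92.0 CPM in F4/80lo VEH. With number 3 left out the orders of Csf1r and Folr2 were the same. In the orders over all libraries, and in those of the other 6 genes, the ranges of every pair of neighbouring groups overlapped.

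The genes whose levels ran most like those of a member over the 12 libraries were ranked by Pearson's r among genes with a mean of at least 10 CPM, as a description that mixes the gate, the treatment and the library number. Ms4a6b (r = 0.961) was among them for Ccr2. For Ly6c2 they were Srsf11 (0.969) and Dhx15 (0.961), and for Plac8 the interferon-induced Ifi204 (0.942) and the Fc receptor gene Fcgr1 (0.941). For Fcrls they were Ear2 (0.904) and Il1rl1 (0.893), for Lyve1 Dmpk (0.952) and Spcs2 (0.928), and for Folr2 Pdia3 (0.869) and Anxa6 (0.857). Lrp5 (0.884), a co-receptor of Wnt signalling, was among them for Csf1r. For Lyz1 they were Bcam (0.905) and Fbxl8 (0.903), and for Cd226 Ifi35 (0.911) and Kbtbd7 (0.891).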

How the data were processed

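RNA-seq of sorted Mϕ was deposited as 1 table per subpopulation, 6 libraries each. The deposited values are normalized counts (a scaled signal). The authors aligned reads with STAR to GRCm38, collapsed unique molecular identifiers, counted reads per gene with HTSeq and divided by a DESeq2 size factor within each table. Versions were not given in the sources used here. Dividing by the value of 1 read gave whole reads for 100% of values (tolerance 0.01 reads). Symbols were found in GENCODE M21 for 47224 of 47643 identifiers. Reads of both tables were scaled jointly (TMM, edgeR 4.0.16), filtered at a mean of 3 CPM and compared with limma 3.58.1 (trend) on log2(CPM + 1) over 4 group means. CIII and VEH were compared within each table on log2(normalized count + 1), mean at least 3. p-values were adjusted by Benjamini-Hochberg over all genes. edgeR quasi-likelihood and DESeq2 1.42.0 on recovered reads were alternatives. Because the study normalized its tables separately, values across subpopulations depend on the joint scaling.

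The same-number correlation of deviations from group means was 0.121 to 0.504 (F4/80lo) and 0.216 to 0.639 (F4/80hi) between treatments, and 0.263 to 0.691 between subpopulations, each over the 0.1 that was required, so numbers were taken to pair libraries. Different numbers gave −0.361 to 0.171, −0.525 to 0.285 and −0.471 to 0.224, and VEH 1 correlated better with CIII 2 than with CIII 1 in both subpopulations. The pairing comes from these correlations, since the labels give only numbers. Named genes were the 9 members, their tested partners and copies, up to 4 genes with the smallest p of each other list, and, per member, the 2 genes with the highest Pearson's r. Pf4, Retnla and Zbtb46 fall outside this rule and were named after their values were seen. Between subpopulations edgeR called 2 genes and DESeq2 140. Members and lists were chosen with earlier results of these data known. Windows before gene starts are from RefSeq. Some genes that fall under the naming rule are not reported here.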

Additional observations from a re-analysis of the deposited data

How the results depend on the processing

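Members called between F4/80lo and F4/80hi Mϕ numbered 0 unpaired, 1 with DESeq2, 1 with library weights, 1 with the replicate block by number, 4 with the block by treatment and number, 3 with numbers 1 and 2 only, 2 with F4/80hi numbers 1 and 2 against all F4/80lo (a setting added after seeing the data), and 0 to 1 on leaving out 1 library. Among all genes 2 were called, and 4 with total-read scaling, 10 with a pseudocount of 5, 0 without a filter, 140 with DESeq2, 270 with weights, 279 with the replicate block, 549 with the fuller block, 330 with numbers 1 and 2, 301 with F4/80hi numbers 1 and 2, and 0 to 142 on leaving out 1 library. Without F4/80hi VEH 3, Ccr2 was called (3.30). Within VEH 0 members were called, and 1 with the fuller block, 2 with numbers 1 and 2, 1 with F4/80hi numbers 1 and 2 and 0 to 1 on leaving out 1 library; the genes called were 0, and 19 with DESeq2, 9 with weights, 12 with the replicate block, 163 with the fuller block, 79 and 39 with those subsets and 0 to 24 on leaving out 1 library. Within CIII 0 members were called and 2 with the fuller block; the genes called were 0, and 22 with DESeq2, 52 with weights, 18 with the replicate block, 107 with the fuller block, 78 and 4 with those subsets and 0 to 1 on leaving out 1 library. For CIII in F4/80lo Mϕ 2 members were called with numbers 1 and 2, and 2 genes with DESeq2, 2 with weights and 12 with numbers 1 and 2. The replicate block changed no call of CIII against VEH. Signs turned for Lyz1 between subpopulations (edgeR 0.0482, DESeq2 0.0685) and Csf1r (F4/80hi numbers 1 and 2, −0.10). For CIII in F4/80lo Mϕ they turned for Ly6c2 (numbers 1 and 2, 0.67), Cd226 (quantile 0.56, pseudocount 5 0.10, edgeR 0.57, DESeq2 0.59, weights 0.49), Folr2 (edgeR 0.0795, DESeq2 0.0636, weights 0.36, numbers 1 and 2 0.0204) and Plac8 (equal totals 0.0396, quantile 0.24, pseudocount 5 0.17, edgeR 0.29, DESeq2 0.33, weights 1.95, numbers 1 and 2 0.35). In F4/80hi Mϕ they turned for Ccr2 (edgeR −0.38, DESeq2 −0.40), Ly6c2 (weights 0.41, numbers 1 and 2 0.70) and Plac8 (edgeR −1.32, DESeq2 −1.34). On leaving out 1 library the ranges that crossed 0 were, between subpopulations, −0.67 to 0.57 for Lyz1 and −0.066 to 0.18 for Csf1r; for CIII in F4/80lo Mϕ, −0.0739 to 0.97 for Ccr2, −0.69 to 0.92 for Ly6c2, −0.997 to 0.92 for Cd226, −0.83 to 0.43 for Folr2, −2.07 to 0.46 for Lyz1 and −1.16 to 1.85 for Plac8; and in F4/80hi Mϕ, −1.66 to 1.69 for Ly6c2, −1.42 to 0.49 for Lyz1, −0.55 to 2.58 for Plac8 and −2.36 to 0.41 for Lyve1. Without crossing 0, the widest ranges were 0.05 to 3.10 for Ccr2 with CIII in F4/80hi Mϕ, −4.31 to −0.92 for Fcrls and −3.40 to −0.60 for Lyve1 with CIII in F4/80lo Mϕ. With CIII in F4/80hi Mϕ, Folr2 ran from 0.04 to 0.87 and Csf1r from 0.03 to 0.55. Between subpopulations Plac8 ran from 0.29 to 1.88. The cause was not tested. Of the values of single genes under the alternatives 404 kept direction and side of the threshold, 15 passed it newly and 51 turned sign. Depth limits Cd226, and Fcrls and Ly6c2 in F4/80hi Mϕ.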
